A study of Danio rerio with 48 samples.

Results

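The step from 4.25 to 5.25 hours post fertilisation (hpf) in zebrafish (Danio rerio) is described here from 24 of the 48 embryos of the series, 12 at 5.25 hpf and 12 at 4.25 hpf. At each stage, 6 embryos belonged to the wild-type strain TL and 6 to the wild-type strain AB. Within a strain and stage, embryos 1 to 3 made up biological replicate 1 and embryos 4 to 6 biological replicate 2, so that stage was compared within 4 combinations of strain and replicate with 3 embryos each. All embryos came from natural spawning, were raised at 28.5 °C without treatment, and were profiled one by one as whole embryos with CEL-seq2, which tags the 3′ end of polyadenylated RNA and amplifies pooled samples. The labels give neither the number of clutches nor the parents, so the p-values measure the spread between these embryos, some of which may be siblings. Each stage carried its own library index, and stage and library pool therefore cannot be told apart. The study asked how single embryos differ in the group of cells from which left-right asymmetry later starts. In zebrafish these are the dorsal forerunner cells, which build the ciliated organ of asymmetry.

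A zebrafish embryo starts with RNA that the mother placed in the egg. Its own genome is switched on in the late blastula, and maternal transcripts are then removed, in part by factors that the embryo itself makes. During the hour studied, the blastoderm begins epiboly, the spreading of cells over the yolk. The outermost cells form the enveloping layer, a thin epithelium, and marginal cells that fuse with the yolk form the yolk syncytial layer, which sends Nodal signals to the margin above it. Nodal, FGF, BMP and Wnt signals then divide the blastoderm into endoderm, mesoderm and ectoderm and set its dorsal and ventral sides.

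Total counts ran from 4931012 to 15480345 per embryo at 5.25 hpf and from 5802041 to 11259530 at 4.25 hpf. A single gene, ENSDARG00000080337, took 11.4 to 56.1% of them at 5.25 hpf and 11.3 to 60.5% at 4.25 hpf and was left out of all totals and tests. The deposited values are raw counts. Levels are given in CPM, counts relative to the library total, after TMM scaling over all 48 embryos, as the lowest, the highest and the median embryo of the 12 at a stage. The data hold no external standard, so every level is relative to the rest of the RNA of the same embryo. The first principal component (31.8% of the variance) separated all 5.25 hpf embryos from all 4.25 hpf embryos, and the second (21.6%) separated the strains. On the first component the 5.25 hpf embryos of replicate 2 lay between 7.51 and 40.5 and those of replicate 1 between 49.5 and 75.9. At 4.25 hpf the ranges were -69.4 to -39.9 for replicate 2 and -41.6 to -23.2 for replicate 1. Of the 21 matched genes of later tissues, 20 were too low to be tested, and the neural gene ELAVL3 rose (2.04 ± 0.36). The counts of all 21, ELAVL3 included, summed to 37 to 99 per embryo at 5.25 hpf and 23 to 98 at 4.25 hpf.

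Of 11864 genes with enough counts to be tested, 780 rose (6.57%) and 818 fell (6.89%) at 5.25 hpf relative to 4.25 hpf. A rise or fall here means a Benjamini-Hochberg adjusted p under 0.05 in edgeR's quasi-likelihood test, with strain and replicate as blocks, and a change of at least 2-fold (a log2 fold change of 1). Called rises were larger than called falls. The median rise was 1.81 on the log2 scale, with 321 rises of at least 2 and 58 of at least 4, whereas the median fall was -1.22, and 18 genes fell by 2 or more and 0 by 3 or more. The gap was small among genes with a mean of 10 CPM or more at 2.25 hpf, where the median rise was 1.33 and the median fall -1.22. Among rises below 1 CPM at that stage the median was 2.44. Such genes pass the count filter mainly by being high at 5.25 hpf, so their large rises are partly fixed by the filter. The direction was the same in all 4 combinations of strain and replicate for 756 of the 780 rises and 789 of the 818 falls. These genes were called from the same embryos, so this agreement is largely fixed by the call. All 12 embryos at 5.25 hpf lay above all 12 at 4.25 hpf for 293 genes (2.47%) and below them for 206 (1.74%). Scaling by library totals alone, without TMM factors, shifted the median of all genes by -0.15 and changed the split to 687 rises (36.9% of the calls) and 1176 falls, against 780 rises (48.8%) with TMM.

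The levels of these genes at the 2 earlier stages, which the test did not use, differed between rises and falls. Of the rises, 326 (41.8%) had a mean below 1 CPM at 2.25 hpf, 305 had 1 to 10 CPM and 149 had 10 CPM or more. Of 14163 genes below 1 CPM at 2.25 hpf, 444 passed the count filter, which used the 5.25 and 4.25 hpf embryos. A gene silent at 2.25 hpf passes mainly by being high at 5.25 hpf, so the share of these 444 that rose (73.4%) is largely fixed by the filter. Of the falls, 663 (81.1%) had 10 CPM or more at 2.25 hpf, 151 had 1 to 10 CPM and 4 had less than 1 CPM. Of all 11864 tested genes, 8372 (70.6%) had 10 CPM or more at that stage. Among these 8372 genes, 7.92% fell and 1.78% rose, against 6.89% and 6.57% of all tested genes. The share that fell thus lies near that of all genes. A fall also needs a clear level at 4.25 hpf. The small number of falls below 1 CPM at 2.25 hpf is therefore partly fixed by the call. Summed over the 780 rising genes, the stage means came to 12311, 13137, 32271 and 103146 CPM at the 4 stages, from the earliest (2.25 hpf) to the latest. Over the 818 falling genes the sums were 82883, 83003, 62765 and 27329 CPM in the same order. The genes were called on the last 2 stages, so the change between the last 2 sums follows from the call. A total of 189 falling genes ended at 5.25 hpf with less than 25% of their 2.25 hpf level.

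The share of all counts that fell in genes below 1 CPM at 2.25 hpf, a measure that does not depend on the calls, rose at this step. It was 2.59 ± 0.67% at 5.25 hpf and 0.892 ± 0.199% at 4.25 hpf (SD, n = 12 each). The embryos ranged from 1.67 to 3.77% at 5.25 hpf and from 0.560 to 1.22% at 4.25 hpf, and the stages did not overlap. In a two-sided exact permutation test within the 4 combinations, p was 1.25e-05, the smallest that the 160000 labellings allow. Over the 4 stages the medians were 0.236, 0.299, 0.929 and 2.62%. At 5.25 hpf the 6 embryos of replicate 2 (1.67 to 2.49%) lay below the 6 of replicate 1 (2.74 to 3.77%), and the same order held at 4.25 hpf, with 0.560 to 0.867% in replicate 2 and 0.990 to 1.22% in replicate 1. Genes at 10 CPM or more at 2.25 hpf held 94.2 ± 1.08% of the counts at 5.25 hpf and 97.0 ± 0.364% at 4.25 hpf (SD, n = 12 each). The same exact permutation test gave p = 1.25e-05. Both shares are parts of the same total, so this test is not independent of that on the genes below 1 CPM. After all embryos were thinned to 3282435 counts, 16367 ± 473 genes had at least 1 count at 5.25 hpf and 16335 ± 362 at 4.25 hpf (SD, n = 12 each; exact permutation p = 0.683), a difference smaller than the spread between embryos.

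**Figure D1:**
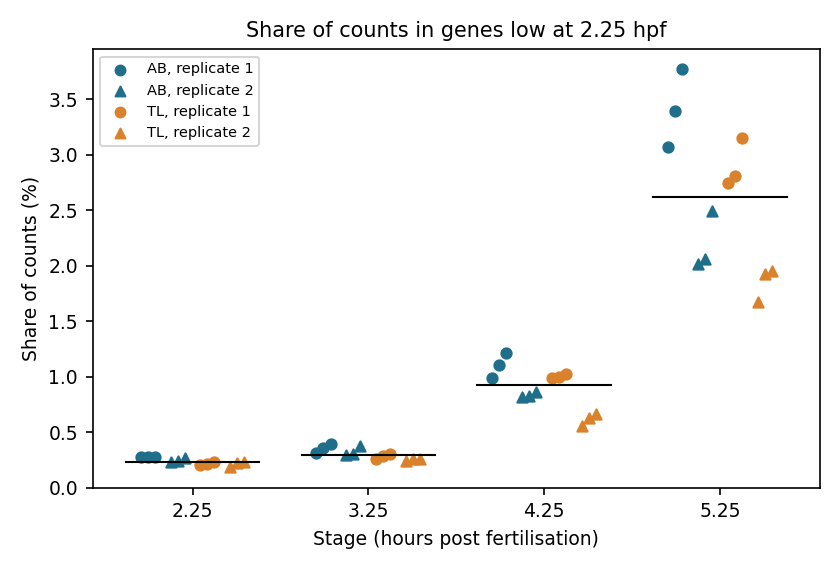
Share of counts (%, vertical axis) in genes with a mean below 1 CPM at 2.25 hpf, for each of the 48 embryos at 4 stages (horizontal axis, hours post fertilisation); colour gives the strain, shape the biological replicate, and the line the median of 12 embryos. The medians are 0.236, 0.299, 0.929 and 2.62%, and replicate 2 lies below replicate 1 at 4.25 and at 5.25 hpf.

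Genes of the enveloping layer gave some of the largest rises. Of 46 matched genes on the enveloping layer list, 31 were tested, and 17 of them rose and 0 fell; the median log2 fold change was 1.19, against -0.003 over all tested genes. The summed level of the 10 markers used to check for this layer was 3685 to 12753 CPM (median 6499) at 5.25 hpf, against 1332 to 4487 CPM (median 1708) at 4.25 hpf. Of 24 matched keratins, which form the intermediate filaments of epithelia, 9 were tested and 9 rose, while the other 15 stayed below the count filter, so this count is of the keratins that could be measured and not of the family. A gene that is nearly silent at 4.25 hpf passes the filter only if it is high at 5.25 hpf. This holds for the enveloping layer list and for every list below, so their counts of rises and their medians are partly fixed by the filter. Over all tested genes 6.57% rose and 6.89% fell, and the counts of the enveloping layer list and of every list below stand beside these shares. The lists overlap, so a gene can be counted in several of them. krt8 had 744 to 5061 CPM (median 2181) at 5.25 hpf, against 9.18 to 128 CPM (median 61.1) at 4.25 hpf, and the log2 fold change was 5.26 ± 0.24 (adjusted p = 4.00e-15). krt18a.1 had 615 to 3226 CPM (median 1639) at 5.25 hpf, against 36.2 to 323 CPM (median 112) at 4.25 hpf. krt4, a common marker of the enveloping layer, had 259 to 1869 CPM (median 737) at 5.25 hpf, against 3.799 to 85.95 CPM (median 37.1) at 4.25 hpf. For each of these keratins every 5.25 hpf embryo stood above every 4.25 hpf embryo. krt5 (5.62 ± 0.45), krt92 (6.48 ± 0.29) and krt97 (4.40 ± 0.23) were also separated without overlap. In whole embryos, more cells of a type and more RNA per cell cannot be told apart.

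Genes of the junctions that hold this epithelium together followed. evpla, which encodes the plakin envoplakin, had 2.00 to 122 CPM (median 34.2) at 5.25 hpf, against 0 to 1.36 CPM (median 0.0655) at 4.25 hpf, and its log2 fold change of 7.56 ± 0.47 was the largest rise among genes whose symbol belongs to a single ID and that averaged at least 50 counts. Its 4.25 hpf counts were close to 0, so the size of the fitted change depends on the prior count. PERP, a desmosomal membrane protein, had 21.4 to 140.4 CPM (median 65.3) at 5.25 hpf, against 0.888 to 6.64 CPM (median 4.85) at 4.25 hpf. PPL, which encodes periplakin, had 18.1 to 78.9 CPM (median 30.2) at 5.25 hpf, against 3.004 to 12.7 CPM (median 6.18) at 4.25 hpf. pkp3a, a plakophilin, rose by 3.28 ± 0.47 and DSP (ENSDARG00000022309), a desmoplakin, by 3.83 ± 0.38. The annexin ANXA1 and the calpain CAPN9 rose by 5.24 ± 0.37 and 5.22 ± 0.35. Among 17 tested claudins, the proteins that seal tight junctions, 8 rose and 2 fell, and 25 other matched claudins were below the filter. The claudin cldne had 119 to 881 CPM (median 261) at 5.25 hpf, against 6.16 to 122 CPM (median 25.2) at 4.25 hpf; its stages overlapped, since the highest 4.25 hpf embryo reached the level of the lowest at 5.25 hpf. cldn23.1 (3.42 ± 0.18) and cldnb (3.44 ± 0.29) were separated without overlap. In the other direction, cldnd had 342 to 1348 CPM (median 787) at 5.25 hpf, against 983 to 2065 CPM (median 1769.9) at 4.25 hpf. Without replicate 1, 0 of the 17 claudins passed as falls. cldng, with a log2 fold change of -0.86 ± 0.12, did not reach 2-fold. Among regulators, GRHL1, a Grainyhead-like factor, rose by 1.19 ± 0.33. The 14 tested members of the list that passed in neither direction had log2 fold changes between -0.34 and 0.98.

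**Figure D2:**
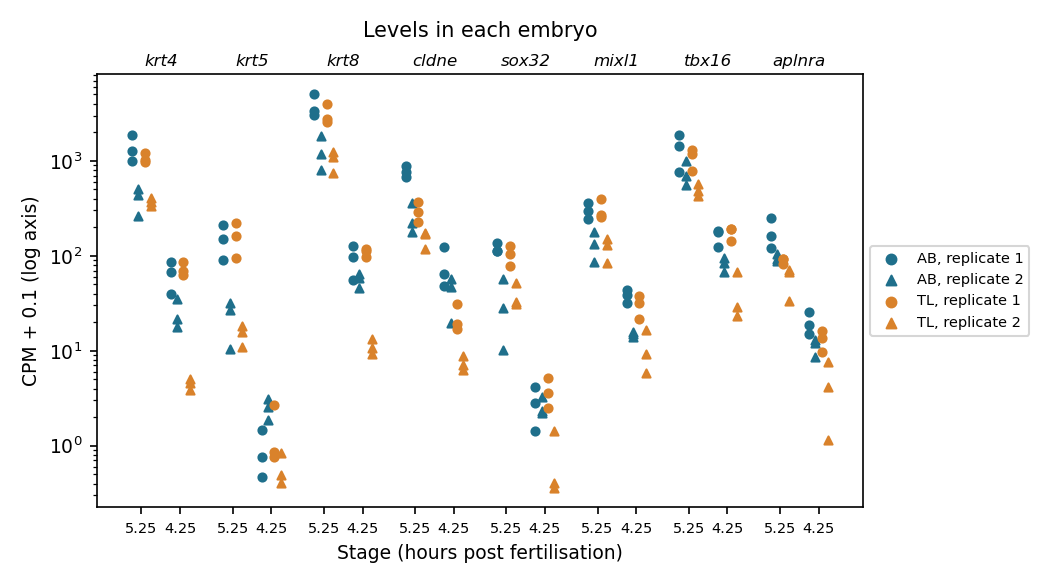
Levels of 8 genes in single embryos (CPM plus 0.1 on a log axis), with the 12 embryos at 5.25 hpf left of the 12 at 4.25 hpf for each gene; colour gives the strain and shape the biological replicate. Keratins and the claudin cldne stand left, genes of endoderm and mesoderm right. At 5.25 hpf the triangles of replicate 2 mostly lie under the circles of replicate 1, as for krt8 and sox32.

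The yolk syncytial layer list had 13 tested members of 35 matched, and 9 rose and 1 fell, with a median change of 2.36. HNF4A, a nuclear receptor, had 10.7 to 76.02 CPM (median 30.9) at 5.25 hpf, against 0 to 1.59 CPM (median 0.426) at 4.25 hpf, with a log2 fold change of 6.27 ± 0.36 (adjusted p = 1.52e-13). The homeobox gene mxtx1 had 68.1 to 273 CPM (median 158) at 5.25 hpf, against 3.55 to 68.7 CPM (median 19.2) at 4.25 hpf. Its relative mxtx2, which acts early in this layer in zebrafish, had 106 to 367 CPM (median 179.6) at 5.25 hpf, against 54.03 to 176 CPM (median 103) at 4.25 hpf and did not reach 2-fold (0.88 ± 0.19). Apolipoprotein genes, whose products carry yolk lipids, were among the rises. apoeb had 397 to 1125 CPM (median 665) at 5.25 hpf, against 70.32 to 250.1 CPM (median 166) at 4.25 hpf, and apoc1 had 19.3 to 319 CPM (median 102) at 5.25 hpf, against 8.21 to 24.2 CPM (median 16.7) at 4.25 hpf. The sulfate transporter SLC26A1 rose by 4.71 ± 0.39 and GATA3 by 1.81 ± 0.13. slc3a2a, an amino acid transporter subunit, was the list's single fall (-1.29 ± 0.35).

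Of 22 matched endoderm genes, 15 were tested, 9 rose, 0 fell and 6 did not pass, and the median log2 fold change was 2.40. sox32, the HMG-box factor that zebrafish need to form endoderm, had 10.2 to 136 CPM (median 67.4) at 5.25 hpf, against 0.262 to 5.01 CPM (median 2.30) at 4.25 hpf, with a log2 fold change of 4.88 ± 0.30 (adjusted p = 6.91e-13). GATA5 and mixl1, which act upstream of it together with Nodal, moved the same way. GATA5 had 8.31 to 49.1 CPM (median 25.2) at 5.25 hpf, against 0 to 2.50 CPM (median 0.849) at 4.25 hpf. mixl1 had 83.9 to 399 CPM (median 212) at 5.25 hpf, against 5.77 to 43.9 CPM (median 18.8) at 4.25 hpf. These 3 genes were higher in each 5.25 hpf embryo than in any 4.25 hpf embryo. GATA6 rose by 3.94 ± 0.32, foxa3 by 3.43 ± 0.27 and FOXA2 by 2.74 ± 0.44. CXCL12, a chemokine that guides migrating cells, rose by 2.40 ± 0.15, and of 2 IDs for its receptor CXCR4, ENSDARG00000057633 rose (1.34 ± 0.13) and ENSDARG00000041959 did not reach 2-fold (0.83 ± 0.11). SOX17, a target of sox32, was below the filter, with 0 to 35 counts per embryo at 5.25 hpf and 0 to 5 at 4.25 hpf.

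Of 15 matched genes expressed in the dorsal forerunner cells or their precursors, 11 were tested, 6 rose and 0 fell, with a median of 1.62. The list shares sox32 with the endoderm list. Other lists overlap too, so their counts are not independent. HNF4A is on the yolk syncytial layer and endoderm lists, and FLRT3 is on the organizer and FGF lists. tbx16, a T-box factor of the margin, had 429 to 1862 CPM (median 779) at 5.25 hpf, against 23.09 to 193 CPM (median 110.00) at 4.25 hpf. tbxta, the brachyury gene, had 13.9 to 195 CPM (median 70.02) at 5.25 hpf, against 2.89 to 21.9 CPM (median 7.50) at 4.25 hpf. noto, a homeobox factor of the dorsal midline, had 103 to 283 CPM (median 219) at 5.25 hpf, against 21.3 to 86.6 CPM (median 35.2) at 4.25 hpf, and the transcriptional cofactor vgll4l had 223 to 479.5 CPM (median 298) at 5.25 hpf, against 25.2 to 112 CPM (median 52.2) at 4.25 hpf. tbx16, noto and vgll4l showed no overlap between stages, while the tbxta ranges met. The 5.25 hpf embryos spread widely for sox32. TL embryos had 51.04, 31.1 and 32.8 CPM in replicate 2 and 78.4, 126 and 104 CPM in replicate 1. AB embryos had 28.1, 56.5 and 10.2 CPM in replicate 2 and 112, 136 and 111 CPM in replicate 1. In both strains every replicate 2 embryo was below every replicate 1 embryo. A difference between strains in the stage change was not detected for these genes. The TL change minus the AB change was 0.57 ± 0.57 for sox32, 0.02 ± 0.32 for tbx16, -0.64 ± 0.45 for tbxta, -0.33 ± 0.26 for noto and 0.06 ± 0.24 for vgll4l (log2 ± SE, edgeR adjusted p from 0.850 to 0.998 over the 6 risen genes of the list). The adhesion genes on the list did not reach 2-fold, with cdh1 (E-cadherin) at 0.53 ± 0.08 and ITGAV, an integrin subunit, at 0.22 ± 0.15.

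Of 24 matched genes of Nodal signalling, 17 were tested, 5 rose and 0 fell. The co-receptor tdgf1 had 431 to 871 CPM (median 609) at 5.25 hpf, against 131 to 289 CPM (median 212) at 4.25 hpf, without overlap. Of the ligands, ndr2 had 10.99 to 24.8 CPM (median 13.5) at 5.25 hpf, against 1.27 to 11.8 CPM (median 4.79) at 4.25 hpf and rose by 1.62 ± 0.22, whereas ndr1, at 44.5 to 88.8 CPM (median 63.1) at 5.25 hpf, against 22.1 to 51.6 CPM (median 38.4) at 4.25 hpf, did not reach 2-fold (0.75 ± 0.13). gdf3, the maternally supplied partner of both in zebrafish, had a log2 fold change of 0.57 ± 0.15. The antagonist lft1 rose by 1.88 ± 0.24, and its relative lft2 had a log2 fold change of 0.79 ± 0.14. The transducers foxh1 and SMAD2 did not reach 2-fold, with foxh1 at 0.69 ± 0.09 and SMAD2 at -0.32 ± 0.12. The targets mixl1 (3.25 ± 0.16) and sebox (3.02 ± 0.28) showed the largest changes on the list.

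Of 37 matched mesoderm genes, 15 were tested, 8 rose and 1 fell. aplnra, the receptor of the peptide that apela encodes, had 33.1 to 251 CPM (median 91.4) at 5.25 hpf, against 1.04 to 25.2 CPM (median 12.4) at 4.25 hpf, and apela itself had 91.4 to 376 CPM (median 225.2) at 5.25 hpf, against 26.5 to 170.01 CPM (median 74.9) at 4.25 hpf. The snail factors rose by 1.47 (snai1b) and 1.27 (snai2), while snai1a had a log2 fold change of 0.43 ± 0.10. EOMES (ENSDARG00000006640), a T-box gene supplied by the mother, had a log2 fold change of -0.36 ± 0.14. The single fall was mespaa (-1.71 ± 0.54), a gene at a median of 3.11 CPM at 4.25 hpf. In AB embryos alone, in TL embryos alone and without replicate 2, 0 of the 15 genes passed as falls.

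On the dorsal organizer list 21 of 31 matched genes were tested, 9 rose, 1 fell and 11 did not pass. chrd, the BMP antagonist chordin, had 28.1 to 94.1 CPM (median 56.7) at 5.25 hpf, against 0.444 to 15.9 CPM (median 6.52) at 4.25 hpf. GSC, goosecoid, had 95.9 to 267 CPM (median 189.6) at 5.25 hpf, against 12.3 to 74.1 CPM (median 61.2) at 4.25 hpf. Both were separated without overlap. FLRT3, foxa3 and foxd5 rose by 3.51 ± 0.24, 3.43 ± 0.27 and 1.31 ± 0.19, and the Wnt antagonist dkk1b rose by 1.31 ± 0.20. The early gene at the head of this pathway did not reach 2-fold: dharma, at 9.72 to 32.8 CPM (median 15.01) at 5.25 hpf, against 4.82 to 17.1 CPM (median 9.44) at 4.25 hpf, had a log2 fold change of 0.67 ± 0.20, and lhx1a had 0.09 ± 0.14. SIX3 (ENSDARG00000058008), a homeobox gene of the anterior brain, was the fall (-2.17 ± 0.39).

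On the BMP list 34 of 49 matched genes were tested, 11 rose, 4 fell and 19 did not pass. Of the ligands, bmp7a had 20.1 to 141 CPM (median 52.8) at 5.25 hpf, against 1.08 to 33.2 CPM (median 4.92) at 4.25 hpf and rose by 3.44 ± 0.32. BMP2 (ENSDARG00000041430) stood just under 2-fold (0.99 ± 0.13). BMP4 rose by 1.27 ± 0.51, and without biological replicate 1 its change was -0.33 (adjusted p = 0.712). The ventral homeobox targets vox and vent rose: vox had 244 to 1063 CPM (median 709.96) at 5.25 hpf, against 79.1 to 174 CPM (median 111) at 4.25 hpf, and vent had 43.7 to 287 CPM (median 135) at 5.25 hpf, against 1.63 to 29.8 CPM (median 9.68) at 4.25 hpf. szl, which encodes the secreted regulator sizzled, rose by 4.48 ± 0.43, BAMBI (ENSDARG00000055381), a decoy receptor, by 2.72 ± 0.16, SMAD7 by 1.40 ± 0.15 and ID1 by 1.51 ± 0.10. ID1 reached 2200.3 to 3623 CPM (median 3114) at 5.25 hpf, against 817 to 1461 CPM (median 1084) at 4.25 hpf. The second BAMBI ID (ENSDARG00000099677) had a log2 fold change of -0.26 ± 0.56, and ID2, a relative of ID1, had -0.96 ± 0.14; neither passed. gdf6a, a further ligand, fell by 1.15 to a median of 3.48 CPM at 5.25 hpf, against 7.33 at 4.25 hpf.

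FGF genes included 10 rises and 0 falls among 20 tested of 37 matched. The number of rises was 7 of 20 under scaling by library totals. It was 6 of 19 in TL embryos alone and 10 of 20 in AB embryos alone, and 7 of 19 without replicate 1 and 9 of 20 without replicate 2. The ligands fgf17, FGF3 and FGF4 rose by 2.84 ± 0.17, 2.94 ± 0.37 and 2.83 ± 0.49. fgf17 had 39.1 to 133 CPM (median 108) at 5.25 hpf, against 5.03 to 28.7 CPM (median 12.2) at 4.25 hpf. The receptor fgfr4 rose by 1.06 ± 0.15. Feedback inhibitors and targets were mixed. spred2a and the ETS factor ETV4 rose by 3.19 ± 0.38 and 2.00 ± 0.24, whereas DUSP6 (0.28 ± 0.12), etv5b (0.26 ± 0.10) and IL17RD (0.00 ± 0.12), which were already above 50 CPM in every 4.25 hpf embryo, did not reach 2-fold. Of 28 tested Wnt genes, 5 rose and 3 fell, where 6.57% of all tested genes rose and 6.89% fell. wnt11f2, the ligand of convergence movements in zebrafish, had 62.1 to 162 CPM (median 117) at 5.25 hpf, against 20.9 to 59.1 CPM (median 44.3) at 4.25 hpf. Its receptor FZD7 rose on both of its IDs, by 1.71 ± 0.15 (ENSDARG00000060004) and 1.22 ± 0.10 (ENSDARG00000027589), and the target SP5 by 2.13 ± 0.22. The ubiquitin ligase ZNRF3, an inhibitor of Wnt receptors, fell by 1.88 ± 0.27, and the inhibitor AXIN2 had a log2 fold change of -0.93 ± 0.17. Of 16 tested Notch genes, 5 rose and 1 fell: NOTCH3 rose by 3.15 ± 0.41 and HEY1 by 2.31 ± 0.25, the ligand DLD had a log2 fold change of 0.34 ± 0.07, and her7 fell by 1.97 ± 0.33. Among 10 tested genes of retinoic acid and Hox function, 2 rose and 2 fell, with a median log2 fold change of 0.12. CRABP2 (ENSDARG00000030449), a retinoic acid carrier, rose by 4.23 ± 0.34, and the caudal homeobox gene cdx4 fell by 1.14 ± 0.44. CYP26A1, which breaks retinoic acid down, had a log2 fold change of 0.16 ± 0.17. Of 48 matched Hox genes, 4 passed the filter, and 2 of them fell. Without replicate 1, 0 of the 10 genes of retinoic acid and Hox function and 0 of the 4 Hox genes passed as falls.

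In the ectoderm list 36 of 52 matched genes were tested, and 15 rose and 5 fell. SOX11 (ENSDARG00000077811), an early neural factor, had 219 to 567.8 CPM (median 373) at 5.25 hpf, against 36.3 to 134 CPM (median 82.8) at 4.25 hpf. Another SOX11 ID (ENSDARG00000095743) was low, with medians of 3.23 CPM at 5.25 hpf and 1.80 CPM at 4.25 hpf. SOX3, a SoxB1 factor, had a log2 fold change of 0.97 ± 0.12, and irx7 had -0.31 ± 0.11; neither passed. The 2 IDs of ZIC2 rose by 2.13 ± 0.15 (ENSDARG00000037178) and 1.80 ± 0.23 (ENSDARG00000015554). TFAP2C, a factor of the epidermal side, had 16.97 to 82.9 CPM (median 40.5) at 5.25 hpf, against 2.21 to 16.1 CPM (median 4.35) at 4.25 hpf, and GATA3 had 69.1 to 138 CPM (median 102) at 5.25 hpf, against 13.9 to 44.7 CPM (median 29.5) at 4.25 hpf. asb11, a ubiquitin ligase subunit that keeps neural precursors in zebrafish, had 485 to 1064 CPM (median 673) at 5.25 hpf, against 52.8 to 310.4 CPM (median 143) at 4.25 hpf. OTX1, known from later neural stages, had 84.6 to 387 CPM (median 182) at 5.25 hpf, against 281 to 628 CPM (median 445) at 4.25 hpf, and the neural genes neurog1 and sox21a fell, with log2 fold changes of -1.66 ± 0.34 and -1.68 ± 0.24. OTX1 was below 2-fold without replicate 1 (-0.97).

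Genes of cell movement and adhesion gave 13 rises and 0 falls among 47 tested of 71 matched. Of the genes for the GTPase RhoA, the list held rhoab and rhoaa, and both rose: rhoab had 59.6 to 171 CPM (median 104) at 5.25 hpf, against 4.18 to 46.2 CPM (median 15.5) at 4.25 hpf, and rhoaa had 18.9 to 96.2 CPM (median 54.04) at 5.25 hpf, against 3.54 to 16.8 CPM (median 9.50) at 4.25 hpf. HAS2, a hyaluronan synthase, had 36.5 to 100.1 CPM (median 66.3) at 5.25 hpf, against 7.55 to 40.2 CPM (median 18.7) at 4.25 hpf. PRICKLE1 (ENSDARG00000045694), a planar polarity gene, rose by 1.57 ± 0.20, and MARCKS (ENSDARG00000004049), an actin-linked kinase substrate, by 1.86 ± 0.12. Another PRICKLE1 ID (ENSDARG00000040649) had medians of 15.7 CPM at 5.25 hpf and 11.2 CPM at 4.25 hpf. Another and more abundant MARCKS ID (ENSDARG00000008803) had medians of 821 CPM at 5.25 hpf and 602 CPM at 4.25 hpf. The 34 tested members that were not called had log2 fold changes between -0.87 and 0.92.

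**Figure D3:**
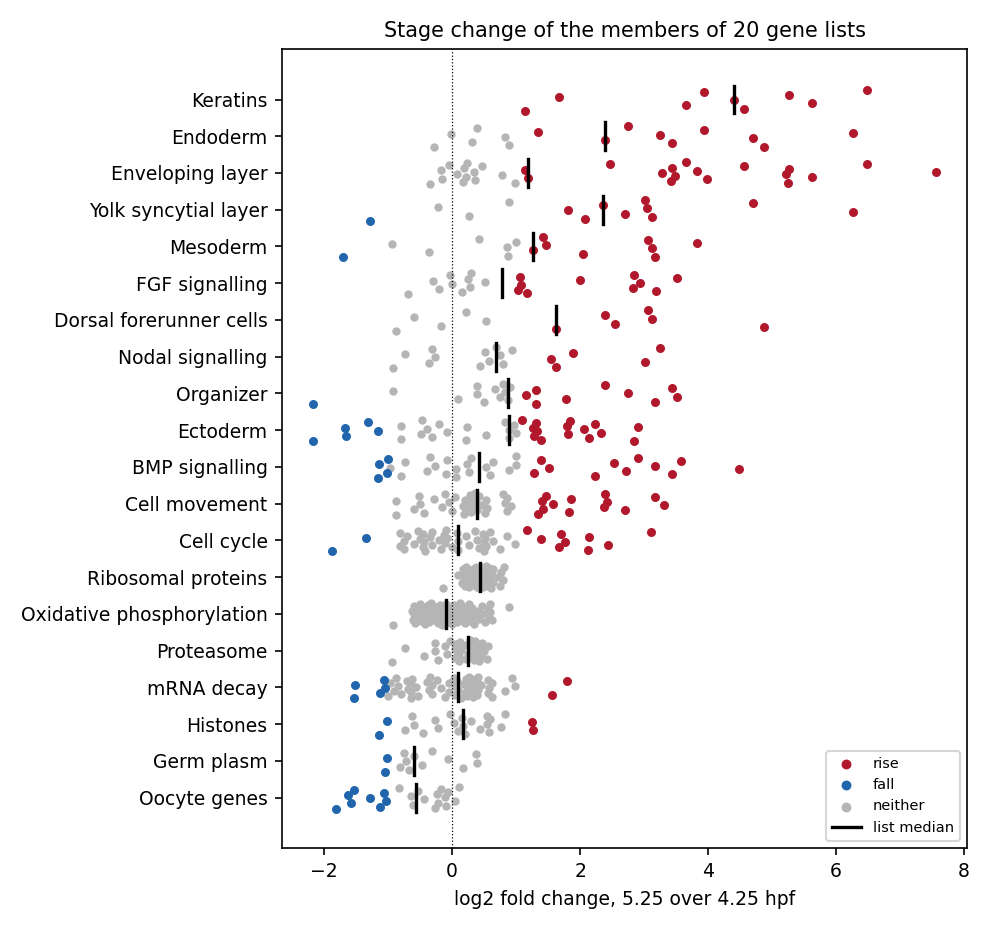
Log2 fold change (5.25 over 4.25 hpf, horizontal axis) of each tested member of 20 gene lists (rows). Red points are rises, blue points falls, grey points neither, and the bar is the list median. Keratins (median 4.40) and endoderm genes (2.40) stand right of the all-gene median of -0.003, and oocyte genes (-0.57) and germ plasm genes (-0.59) left of it. Members below the count filter are not shown, so 9 of 24 matched keratins and 15 of 22 matched endoderm genes appear. Members nearly silent at 4.25 hpf pass the filter only if high at 5.25 hpf, so a shift to the right is partly fixed by the filter.

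Of 17 tested activators of the zygotic genome, 2 rose and 3 fell, where 6.57% of all tested genes rose and 6.89% fell. nanog had 1035 to 2073 CPM (median 1548) at 5.25 hpf, against 595 to 1004 CPM (median 864) at 4.25 hpf and pou5f3 had 413 to 855 CPM (median 551) at 5.25 hpf, against 274 to 419 CPM (median 363) at 4.25 hpf, with log2 fold changes of 0.89 ± 0.09 and 0.72 ± 0.09, short of 2-fold. The maternal SoxB1 gene sox19b had a log2 fold change of -0.49 ± 0.18, while its zygotic relative sox19a had 207 to 341 CPM (median 275) at 5.25 hpf, against 57.1 to 160.5 CPM (median 101) at 4.25 hpf and rose by 1.38 ± 0.11. sox19a was at a median of 0 CPM at 2.25 hpf and 2.95 CPM at 3.25 hpf. The chromatin protein gene hmga1a had 1764 to 4063 CPM (median 2618) at 5.25 hpf, against 966 to 1653 CPM (median 1280.0) at 4.25 hpf (1.08 ± 0.12, and 0.93 under scaling by library totals). TBPL2, the oocyte form of the TATA-binding protein, fell to 21.1 to 135 CPM at 5.25 hpf, against 161 to 245 CPM at 4.25 hpf, and TBP had a log2 fold change of 0.01 ± 0.09. The demethylase gene kdm4ab fell by 1.23 ± 0.14, and of 2 IDs of the acetyltransferase CREBBP, ENSDARG00000104609 fell (-1.45 ± 0.15).

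Of 51 tested cell cycle genes, 9 rose and 2 fell, where 6.57% of all tested genes rose and 6.89% fell. CCND1, cyclin D1, had 1004 to 2229 CPM (median 1356) at 5.25 hpf, against 132 to 559 CPM (median 389) at 4.25 hpf, and CCNE2, an E-type cyclin, had 110.03 to 399 CPM (median 268) at 5.25 hpf, against 11.8 to 72.6 CPM (median 27.4) at 4.25 hpf; neither overlapped. The inhibitors cdkn1ca and cdkn1cb rose by 1.67 ± 0.14 and 1.76 ± 0.24. The zygotic inhibitory kinase WEE1 had 224 to 416 CPM (median 341) at 5.25 hpf, against 62.5 to 138 CPM (median 107) at 4.25 hpf, while its oocyte relative WEE2 had a log2 fold change of -0.11 ± 0.09 and pkmyt1, of the same kinase family, fell by 1.35 ± 0.15. ATM, a kinase of the DNA damage response, fell by 1.87 ± 0.23, without overlap. CCNB1, the mitotic cyclin B1, had 1719 to 2917 CPM (median 2411) at 5.25 hpf, against 1853 to 3158 CPM (median 2604) at 4.25 hpf and had a log2 fold change of -0.09 ± 0.07. Among 37 tested replication genes, MCM3 (2.72 ± 0.16) and dbf4 (1.37 ± 0.16) rose and RFC1 (-1.31 ± 0.13) fell. Neither count exceeds the share of all tested genes. Of 22 tested genes of stress and immediate early response, 8 rose and 0 fell; the small heat shock gene HSPB1 had 276 to 1274 CPM (median 574) at 5.25 hpf, against 31.1 to 175 CPM (median 103) at 4.25 hpf, IER5 rose by 1.88 ± 0.13, and mdm2 had a log2 fold change of 0.48 ± 0.14.

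Of 22 tested genes known from the oocyte and egg, 0 rose, 8 fell and 14 were called in neither direction; without the fold threshold, 14 of the 22 were lower at an adjusted p under 0.05, against 24.8% of all genes tested. The median log2 fold change was -0.57. buc, which organises the Balbiani body of the oocyte, had 105 to 392 CPM (median 216) at 5.25 hpf, against 518 to 834 CPM (median 634) at 4.25 hpf. Its relative buc2l had 50.6 to 163 CPM (median 83.96) at 5.25 hpf, against 198 to 415 CPM (median 338) at 4.25 hpf. bmp15, an oocyte growth factor, had 48.04 to 167 CPM (median 89.7) at 5.25 hpf, against 207 to 313 CPM (median 243) at 4.25 hpf. BTG4, which recruits the deadenylase that shortens maternal poly(A) tails, had 105 to 658 CPM (median 316) at 5.25 hpf, against 733 to 1271 CPM (median 958) at 4.25 hpf. In these 4 genes every 5.25 hpf embryo was lower than every 4.25 hpf embryo. MOS, the kinase that arrests the egg, fell, as did the RNA-binding genes cth1 and ZAR1L, with log2 fold changes of -1.28 ± 0.14, -1.13 ± 0.12 and -1.06 ± 0.13; without replicate 1 the last 2 were at -0.80 and -0.66. Other oocyte genes did not pass: log2 fold changes were -0.06 ± 0.09 for GDF9, -0.11 ± 0.09 for WEE2, -0.18 ± 0.19 for ZAR1 and -0.22 ± 0.11 for the linker histone gene h1m. The course over the earlier stages differed between genes. MOS had medians of 392, 175, 78.3 and 25.1 CPM at the 4 stages and was therefore falling before 4.25 hpf. BTG4, at 1233, 1373, 958 and 316 CPM, had its largest drop at the step studied.

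**Figure D4:**
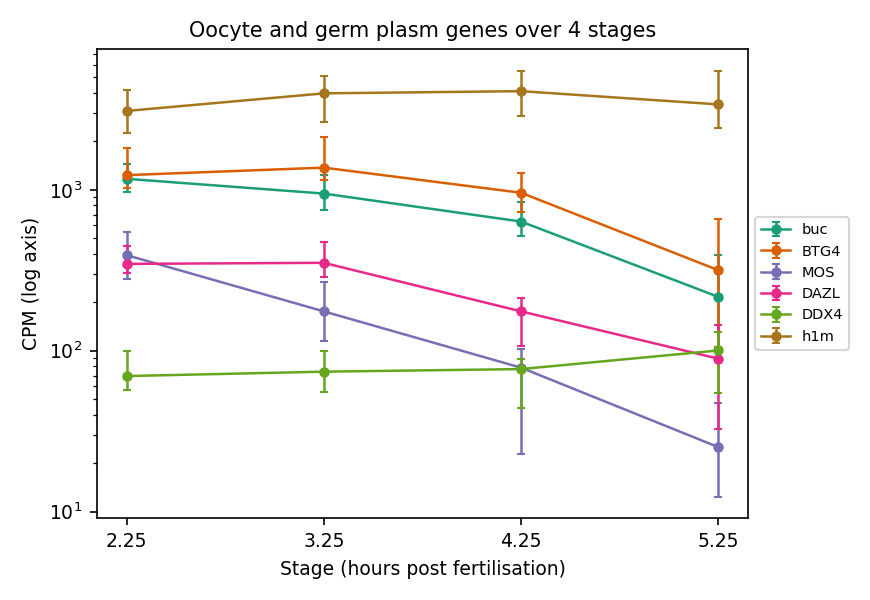
Levels of 6 oocyte and germ plasm genes (CPM, log axis) at the 4 stages (horizontal axis, hours post fertilisation). Points are medians of 12 embryos and bars run from the lowest to the highest embryo. MOS falls over all stages, buc and BTG4 drop most between 4.25 and 5.25 hpf, and the ranges of DDX4 and h1m at 5.25 and 4.25 hpf overlap.

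Germ plasm RNAs are kept in the future germ cells while they are cleared elsewhere. Of 13 tested, 0 rose and 2 fell, and the median log2 fold change was -0.59. Without the fold threshold, 9 of the 13 were lower and 2 higher at an adjusted p under 0.05 in edgeR's test. Over all genes tested these shares were 24.8% and 23.8%. ca15b had 228 to 851 CPM (median 422) at 5.25 hpf, against 749.6 to 1510.4 CPM (median 914) at 4.25 hpf, and its change of -1.01 ± 0.13 lay at the threshold, passing it in some scalings and not in others (-0.98 with DESeq2). DAZL had 32.8 to 144 CPM (median 89.1) at 5.25 hpf, against 106 to 213 CPM (median 175) at 4.25 hpf and fell by 1.05 ± 0.17. NANOS3 and DND1 had log2 fold changes of -0.47 ± 0.12 and -0.75 ± 0.12. DDX4, the vasa gene, had 54.7 to 131 CPM (median 100.3) at 5.25 hpf, against 43.9 to 89.2 CPM (median 76.8) at 4.25 hpf, a log2 fold change of 0.39 ± 0.12. Genes of mRNA decay and maternal translation control gave 2 rises and 5 falls of 67 tested, where 6.57% of all genes rose and 6.89% fell. DROSHA, of microRNA processing, had 26.01 to 90.5 CPM (median 46.7) at 5.25 hpf, against 93.2 to 207 CPM (median 139.8) at 4.25 hpf, and TNRC6A and ZFP36L2 fell, with log2 fold changes of -1.04 ± 0.13 and -1.07 ± 0.14. BTG1 rose by 1.56 ± 0.10, whereas its oocyte relative BTG4 fell. Among 24 tested histone and chaperone genes, the H3.3 gene h3f3a had 1996 to 4047 CPM (median 2739) at 5.25 hpf, against 1013 to 1510.1 CPM (median 1252) at 4.25 hpf and rose by 1.25 ± 0.09, and slbp2, the oocyte form of the histone hairpin-binding protein, had 91.9 to 416 CPM (median 206) at 5.25 hpf, against 352 to 601 CPM (median 464) at 4.25 hpf and fell by 1.14 ± 0.15. Without replicate 1, 0 of the 24 histone and chaperone genes passed as falls. h2ax rose by 1.27 ± 0.41, with a change of 0.23 in AB embryos alone.

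Among housekeeping groups in the fit of all 24 embryos with TMM scaling, 2 splicing factors passed 2-fold. Without replicate 2, the passes were 2 ribosomal protein genes, 6 splicing factors and 3 respiratory chain genes higher and 1 proteasome gene lower. Of 77 tested cytosolic ribosomal protein genes 0 rose and 0 fell by 2-fold in edgeR's test, but 66 were higher at an adjusted p under 0.05, against 23.8% of all genes, with a median change of 0.44 (0.29 under scaling by library totals) and a range of -0.14 to 0.81. Of 38 splicing factors, 33 were higher at an adjusted p under 0.05, the median was 0.46, and srsf5a, an SR protein gene, had 1228 to 2099 CPM (median 1610.3) at 5.25 hpf, against 306 to 583 CPM (median 449) at 4.25 hpf. Proteasome genes had a median of 0.24, and 20 of 41 were higher at an adjusted p under 0.05. The 13 genes of the mitochondrial genome had a median of 0.18, and 0 of 13 passed the adjusted p. Nuclear genes of the respiratory chain had a median of -0.10 (-0.24 under scaling by library totals), with 11 higher and 22 lower of 80 at an adjusted p under 0.05.

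Over all genes, the largest rises among those with a unique symbol, at least 50 mean counts and 1 direction in all combinations were, after evpla, those of styk1b, tnfb, ctsll, krt92, MAPKAPK3, HNF4A and NR0B2. The kinase gene styk1b had 3.30 to 129.7 CPM (median 36.7) at 5.25 hpf, against 0 to 1.40 CPM (median 0.286) at 4.25 hpf. tnfb, a tumour necrosis factor gene, had 0.835 to 101 CPM (median 17.6) at 5.25 hpf, against 0 to 1.84 CPM (median 0) at 4.25 hpf, with overlap. The cathepsin gene ctsll had 7.51 to 412 CPM (median 91.2) at 5.25 hpf, against 0 to 7.02 CPM (median 0.499) at 4.25 hpf. MAPKAPK3, a stress kinase gene, had 1.201 to 57.3 CPM (median 17.3) at 5.25 hpf, against 0 to 1.53 CPM (median 0) at 4.25 hpf, and NR0B2, the nuclear receptor known as SHP, had 3.85 to 55.7 CPM (median 18.03) at 5.25 hpf, against 0 to 1.00 CPM (median 0.241) at 4.25 hpf. The largest falls by the same rule were those of EHF, moto, zfpm2b, DMXL2, PPP1R16A, arhgap32a, tmprss15 and UXS1. EHF, an ETS factor gene, had 0 to 7.51 CPM (median 1.198) at 5.25 hpf, against 2.58 to 16.8 CPM (median 6.98) at 4.25 hpf. moto (minamoto), a germ cell gene, had 1.49 to 12.9 CPM (median 4.35) at 5.25 hpf, against 8.88 to 68.3 CPM (median 26.3) at 4.25 hpf. zfpm2b, a GATA cofactor gene, had 0.673 to 14.5 CPM (median 5.68) at 5.25 hpf, against 13.01 to 53.1 CPM (median 27.5) at 4.25 hpf, and UXS1, a UDP-xylose synthase gene, had 1.51 to 22.2 CPM (median 8.12) at 5.25 hpf, against 24.9 to 69.1 CPM (median 33.9) at 4.25 hpf. UXS1, DMXL2 and PPP1R16A were separated without overlap, EHF, moto, zfpm2b, arhgap32a and tmprss15 were not.

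Few genes differed between strains in this step. The test of the strain by stage term called 4 of 11864 genes (0.0337%), of which cldn8.2 was also a rise and tmprss15 a fall. TL embryos fitted alone gave 787 rises and 874 falls, and AB embryos alone gave 770 rises and 723 falls. The overlap was counted over the 11278 genes tested in both fits, which leaves out genes that passed the filter in 1 strain only. Of the 724 rises in TL among these genes, 73.3% also rose in AB, and of the 682 in AB 77.9% also rose in TL. For falls among the same genes the shares were 55.04% of the 843 in TL and 66.7% of the 696 in AB. tmprss15, a transmembrane protease gene, was at 0 to 1.00 CPM in TL embryos at 5.25 hpf, against 2.17 to 50.1 CPM at 4.25 hpf, and at 26.1 to 43.5 CPM in AB embryos at 5.25 hpf, against 43.4 to 57.98 CPM at 4.25 hpf. The TL change minus the AB change was -4.92 ± 0.75 (adjusted p = 0.00532). Among TL replicate 2 embryos at 4.25 hpf, 2 of 3 were already low, with 2.62, 2.17 and 39.4 CPM. cldn8.2, a claudin, was at 3.002 to 37.8 CPM in TL embryos at 5.25 hpf, against 0.786 to 2.11 CPM at 4.25 hpf, and at 4.17 to 65.5 CPM in AB embryos at 5.25 hpf, against 0 to 0.231 CPM at 4.25 hpf. The difference of -4.71 ± 0.71 (adjusted p = 0.00532) rests on AB counts near 0 at 4.25 hpf and depends on the prior count. SPART (ENSDARG00000103457) was at 1.501 to 3.28 CPM in TL embryos at 5.25 hpf, against 0.774 to 1.70 CPM at 4.25 hpf, and at 5.20 to 21.99 CPM in AB embryos at 5.25 hpf, against 13.6 to 32.9 CPM at 4.25 hpf. Its difference was 2.37 ± 0.41 (adjusted p = 0.0234). The last of the 4 genes, si:ch1073-475m10.1, was too low for the rule on named genes and is only named for completeness, its values having been seen. Of the 4 differences 1 was positive, that of SPART, and 3 were negative, that of si:ch1073-475m10.1 among them. DESeq2 called 76 genes for this term and included all 4, and the fit without replicate 1 called 0, with 496 genes at an unadjusted p under 0.05.

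The biological replicates differed more. The replicate by stage term called 241 genes (2.03%), of which 30 were also rises and 45 also falls. DESeq2 called 582 genes for this term, 232 of them among the 241, and the fit to sums of 3 embryos called 7, of which 6 were among the 241. Of those 45 falls, 45 were smaller in replicate 2, and of the 30 rises, 21 were smaller in replicate 2. The median change of the 780 rising genes was 1.84 (TL) and 1.58 (AB) in replicate 2, and 1.76 (TL) and 1.91 (AB) in replicate 1. That of the 818 falling genes was -1.12 (TL) and -1.01 (AB) in replicate 2, and -1.46 (TL) and -1.47 (AB) in replicate 1. In replicate 2 krt5 had 10.4 to 31.8 CPM at 5.25 hpf, against 0.310 to 3.01 CPM at 4.25 hpf. In replicate 1 it had 89.96 to 222 CPM at 5.25 hpf, against 0.369 to 2.58 CPM at 4.25 hpf. The replicate 2 change minus the replicate 1 change was -3.41 ± 0.61 (adjusted p = 0.00564). krt99 differed by -4.99 ± 1.03 (adjusted p = 0.0144) and the integrin gene itga6l by -3.60 ± 0.89. In the other direction CYP1B1 differed by 3.13 ± 0.82, C24H8orf34 by 2.04 ± 0.50 and si:dkey-235h8.1 by 1.93 ± 0.49. At 5.25 hpf every replicate 2 embryo had less krt5 than every replicate 1 embryo. Fitted within a single strain, the term called 17 genes in TL and 10 in AB. Each replicate was sequenced in runs of its own, so replicate and run cannot be told apart.

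**Figure D5:**
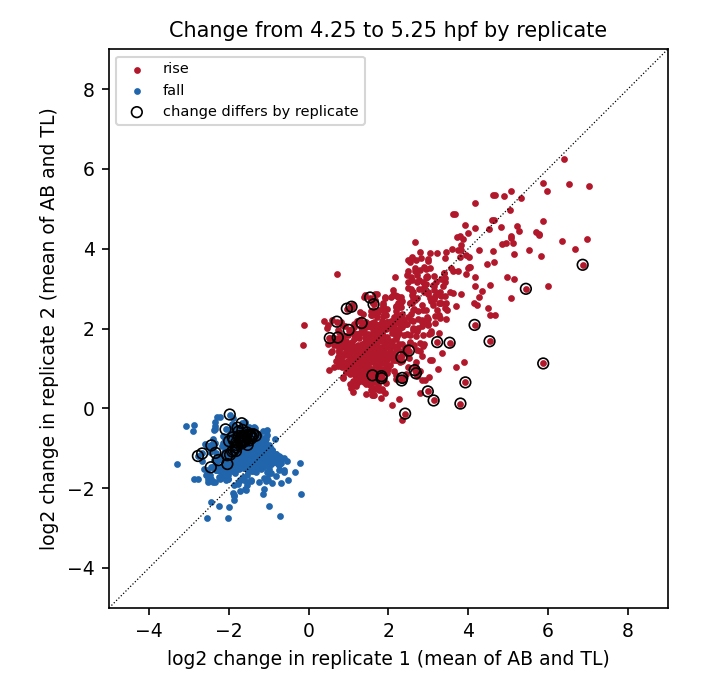
Log2 change from 4.25 to 5.25 hpf in replicate 2 (vertical axis) and replicate 1 (horizontal axis), each the mean of the AB and TL changes, for the 780 rises and 818 falls; the dotted line marks equal change. Open circles mark the 75 genes whose change differs by replicate at an adjusted p under 0.05; all 45 circled falls lie above the line.

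The spread between embryos of one strain, replicate and stage was measured as edgeR's biological coefficient of variation over 12286 genes with at least 10 mean counts. It averaged 0.339 ± 0.024 at 5.25 hpf and 0.249 ± 0.077 at 4.25 hpf (SD, n = 4 combinations each) and was higher at 5.25 hpf in all 4. The gap was widest in TL replicate 1, at 0.308 at 5.25 hpf and 0.141 at 4.25 hpf, and narrowest in TL replicate 2, at 0.338 at 5.25 hpf and 0.311 at 4.25 hpf. The two-sided exact sign-flip permutation test gave the smallest p that 4 pairs allow, which lies above 0.05.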

How the data were processed

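Single whole embryos of strains TL and AB were profiled with CEL-seq2. The deposited values are raw counts per gene and embryo, as whole numbers. Per the labels' protocols, samples were barcoded and pooled, the index differed by time point, and each biological replicate was sequenced in 2 runs. Per the submitters' processing notes, bcl2fastq 2.19.0.316, STAR 2.7.1a and edgeR 3.26.8 were used, with no roles given. The genome build, annotation, counter, strand setting and handling of molecular identifiers are not given in the sources used here. Reads of near-identical genes may be split by the counting, and genes whose symbol is shared by 2 IDs are given with the ID.

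The counts were tested with edgeR 4.0.16 (R 4.3.3) by quasi-likelihood with Benjamini-Hochberg adjustment, after edgeR's expression filter and TMM scaling. The model held 24 embryos, a block for each of 4 combinations of strain and biological replicate, and stage. The strain by stage term (TL minus AB) and the replicate by stage term (replicate 2 minus replicate 1) came from 1 further model. Log2 fold changes are given ± SE, 5.25 over 4.25 hpf. Those of genes near 0 counts depend on the default prior count of edgeR's fit. A prior count of 2 was used for the principal components and for the change within each combination. The replicate numbers pair the samples, since each replicate had its own sequencing runs. Deviations of same-numbered groups correlated with r = 0.203 to 0.525 over 11825 genes. The 24 pairs of embryos of 1 group and replicate differed by more than sampling noise (chi-square per degree of freedom 5.18 to 33.0). All columns of the tables were used.

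A few genes are not reported here. Gene symbols came from a table of gene IDs and symbols, which matched 29201 of 32520 IDs and writes some zebrafish genes in capitals. Of the listed symbols, 43 matched nothing. The lists and genes were chosen with earlier results of these data known, and some name patterns were corrected after the files were seen. Named genes were the 8 largest rises and falls with at least 50 mean counts, 1 direction in all 4 combinations and a symbol of a single ID, up to 4 rises and 4 falls per list with up to 2 members that moved least, the 3 largest effects per direction of each interaction, and further members of lists of at most 40 genes. Genes of longer lists given beyond this rule were picked as textbook members. A simulation put known changes into some genes of a fit of 11606, of which 11408 had no change. The stage test called 46 of 49 genes with a log2 change of 1.5 (93.9%) and 50 of 50 with 2 (100%). In the simulation of the strain term, a fit of 11597 genes, 19 of 47 differences of 1 (40.4%) were called. Of differences of 2, 37 of 49 (75.5%) were called.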

Additional observations from a re-analysis of the deposited data

Results flagged for a closer look

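In 84 groups of 6 embryos, 7 values stood apart from the rest of their group, where chance gives about 5% of groups. That rate is for continuous values. It need not hold for genes near 0 counts, where all flags but that of ENSDARG00000080337 arose. The share of counts taken by ENSDARG00000080337 was 13.7% in a TL embryo at 4.25 hpf, against 25.5 to 31.5% in the other 5. Among the low genes, tnfb was at 1.84 CPM in an AB embryo at 4.25 hpf (0 to 0.439 in the others) and at 0.254 CPM in a TL embryo (0 in the others). At 4.25 hpf, MAPKAPK3 was at 0.501 CPM in a TL embryo (0 in the others), and NR0B2 at 1.00 CPM in a TL embryo (0 to 0.262 in the others). EHF was at 3.18 CPM in a TL embryo at 5.25 hpf (0 to 0.894 in the others) and at 7.51 CPM in an AB embryo (0 to 2.44 in the others).

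The change between stages differed between strains for 4 genes, among them SPART (2.37, TL minus AB), tmprss15 (-4.92) and cldn8.2 (-4.71). It differed between biological replicates for 241 genes, 159 with a positive and 82 with a negative replicate 2 minus replicate 1 value. These include CYP1B1 (3.13, edgeR adjusted p = 0.0477), C24H8orf34 (2.04, adjusted p = 0.0374), si:dkey-235h8.1 (1.93, adjusted p = 0.0400), krt99 (-4.99, adjusted p = 0.0144), itga6l (-3.60, adjusted p = 0.0387) and krt5 (-3.41).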

How the results depend on the processing

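Rises numbered 1503 without a count filter and 466 when tested against a 2-fold change (glmTreat), where falls numbered 162. Without replicate 1 or replicate 2 the rises numbered 608 to 1069 and the falls 468 to 1185, and without any single embryo 770 to 827 and 771 to 897. Without the replicate block there were 786 rises and 769 falls, both within 1.5 times the counts with it. Scaling by library totals gave 687 rises and 1176 falls. The strain term called 76 genes with DESeq2, 8 with all 48 embryos in the fit, 2 under the stricter filter, 2 after thinning, 1 on sums of 3 embryos, and 0 without replicate 1 to 26 without replicate 2. The replicate term called 582 genes with DESeq2, 17 in TL alone, 10 in AB alone and 7 on sums of 3 embryos. The difference in detected genes was 31.5, and it was -138.8 on full counts and between -60.7 and 124 without either replicate, with no p under 0.05. BMP4 ranged from -0.33 without replicate 1 to 2.77 without replicate 2. Of 168 called genes followed one by one, 121 kept their call in every setting in which they were tested, and 134 in all of these but glmTreat. A setting whose filter removed a gene was not counted for that gene, and the fits without a single embryo were not included. The cause of the losses was not tested. Depth limits the genes near 0 counts at 4.25 hpf.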

Other observations

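Other gene families were counted against the shares of all genes, 6.57% of which rose and 6.89% fell. Of 127 tested zinc finger genes of 315 matched, 12 rose and 9 fell, and of 187 tested solute carriers 18 rose and 12 fell, with medians of 0.09 and 0.005. These shares lie near those of all genes. Of 8 tested finTRIM genes, a fish family of the TRIM ubiquitin ligases, 4 rose and 1 fell, while 66 others were below the filter. Among 11 tested tubulins 2 rose and 1 fell, and of 11 tested cathepsins 1 rose and 0 fell.

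Of the 818 falling genes, 159 had a higher mean at 4.25 hpf than at 2.25 hpf, 90 of them from 10 CPM or more at 2.25 hpf. Below 1 CPM at 2.25 hpf there were 4 falling genes, and their means were highest at 4.25 hpf. Of the 11864 tested genes, 444 (3.74%) were below 1 CPM at 2.25 hpf. Such genes passed the filter mainly by being high at 5.25 hpf, so the number 4 is partly fixed by the filter. FILIP1 had stage means of 0.408, 1.03, 6.603 and 2.44 CPM from the earliest stage to the latest, with a log2 fold change of -1.68 ± 0.38 at the last step. The caudal homeobox gene cdx4 had 0.933, 1.31, 3.155 and 1.58 CPM in the same order, si:dkeyp-87d1.1 had 0, 1.56, 19.996 and 11.3 CPM, and si:dkey-235h8.1 had 0.0108, 0.414, 11.9 and 7.60 CPM.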
